A study of Rattus norvegicus with 12 samples.

Results

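Intermediate filaments are the rope-like part of the cytoskeleton. Their building blocks are used by cell type: keratins pair as obligate partners (Krt8 with Krt18 or Krt19) in simple epithelia, vimentin (Vim) is the main filament protein of mesenchymal cells, nestin (Nes) is known from neural progenitors, and the neurofilament proteins, alpha-internexin (Ina) and peripherin (Prph) are known from neurons. A shift from keratin to vimentin is a classical sign of epithelial cells becoming mesenchymal, and reprogramming of fibroblasts is known to run that shift in the opposite direction.

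The genes described here are 10 intermediate filament genes, namely Krt8, Krt18, Krt19, Vim, Nes, Gfap, Prph, Nefl, Nefm and Ina, out of 14218 genes that the rat array names with a single symbol. They were taken by symbol, and all of their 12 probe sets are reported. Where a gene had 2 probe sets, the one of higher average on the 12 arrays stands for it. Of the 10 genes, 9 had a mean of at least 5 log2 units in some line and were tested among 11001 genes; Gfap did not reach that level.

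The study asked whether induced pluripotent stem (iPS) cells of the rat resemble embryonic stem (ES) cells in gene expression. The iPS lines A1 and A2 were made from the FHH strain with a transposon system, and were grown on mitomycin C-treated mouse feeder fibroblasts. The ES lines were DAC2 and DAC8, of a strain not named in the labels. The embryonic fibroblast (EF) cultures REF1 and REF2 came from FHH embryos at e14.5. The iPS and ES cells, in 2i medium, gave RNA 5 days after passage, and the fibroblasts, in MEF medium, after 6 days. Each line had 2 arrays. Separate cultures are not stated for them, so a p-value between lines takes in only the differences among arrays of 1 line, which may be technical. Levels are the deposited log2 signals, and a level under 5 is read here as not shown to be above background. A difference against a line under 5 is at most a lower bound, and levels under 5 are given no order. A gene under 5 on some lines entered the tests through the others, so a difference between them was partly built into its selection.

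The arrays labelled DAC8 and those labelled REF2 went against their labels. The median level of 17 fibroblast markers was 9.77 on DAC8 and 10.61 on REF1, and at most 4.49 on the other lines. The median of 14 epithelial markers was 7.19 on DAC2 and 7.48 on REF2, and at most 4.41 elsewhere, and that of 7 markers of naive pluripotency was 10.01 on DAC2 and 9.94 on REF2, and at most 5.33 elsewhere. Over the 11001 tested genes DAC8 correlated with REF1 at 0.987 and DAC2 with REF2 at 0.975, while DAC2 correlated with DAC8 at 0.638 and REF2 with REF1 at 0.636. The iPS lines carried neuron markers at a median of 10.20 on A1 and 10.27 on A2 over 15 genes, against at most 5.05 on the other lines. No array was moved to another group. The lines are therefore compared one by one below, and the comparisons of labelled cell types are given with and without the libraries labelled DAC8 and REF2. The difference between the 3' and 5' control probes of beta-actin, a measure of RNA integrity and amplification, was 0.45 to 0.52 on DAC8 and 0.42 to 0.48 on REF1, and 0.84 to 1.05 on the other arrays. It set apart DAC8 and REF1, the lines on which Nefl was lowest and Krt7 and the fibroblast markers were highest, and its part in those results was not tested.

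The promoters below are shown because Krt8 and Krt18, which are neighbours on chromosome 7, were high on the same lines, while Vim was high on the other lines and Ina on the iPS lines alone. Each runs from 250 bases before the annotated start to 50 bases after it, on the strand of the gene, and is taken from RefSeq in the build GRCr8, whose promoter table held 7 of the 10 genes. The Krt8 window is chr7:135010290-135010589 on the minus strand, that of Krt18 chr7:135035918-135036217, that of Vim chr17:81577011-81577310 and that of Ina chr1:255837879-255838178, all of them on the plus strand except the first. Capitals mark matches to 5 motifs on either strand. The TATA box was searched as TATAA and the GC box as GGGCGG. The CCAAT box was searched by its name alone. The AP-1 site was searched as TGANTCA. The E-box known to be bound by the Snail and Zeb repressors was searched as CACCTG. Where the TATAA letters occur on both strands, the matches overlap and form a single run of capitals.
Krt8: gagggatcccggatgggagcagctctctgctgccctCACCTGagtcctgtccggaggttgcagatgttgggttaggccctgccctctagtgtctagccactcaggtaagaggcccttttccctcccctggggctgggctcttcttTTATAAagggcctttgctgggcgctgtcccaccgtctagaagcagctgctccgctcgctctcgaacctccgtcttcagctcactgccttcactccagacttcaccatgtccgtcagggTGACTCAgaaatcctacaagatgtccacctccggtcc
Krt18: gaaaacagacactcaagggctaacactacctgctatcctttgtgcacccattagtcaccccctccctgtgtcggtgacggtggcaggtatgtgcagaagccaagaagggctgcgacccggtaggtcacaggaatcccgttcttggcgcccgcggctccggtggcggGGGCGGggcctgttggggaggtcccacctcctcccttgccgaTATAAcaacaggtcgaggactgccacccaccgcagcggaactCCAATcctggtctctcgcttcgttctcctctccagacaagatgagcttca
Vim: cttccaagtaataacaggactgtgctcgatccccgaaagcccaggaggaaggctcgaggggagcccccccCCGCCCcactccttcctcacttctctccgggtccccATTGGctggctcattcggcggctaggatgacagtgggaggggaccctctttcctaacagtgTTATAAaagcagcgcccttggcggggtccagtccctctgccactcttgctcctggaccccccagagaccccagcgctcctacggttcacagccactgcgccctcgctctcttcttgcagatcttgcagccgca
Ina: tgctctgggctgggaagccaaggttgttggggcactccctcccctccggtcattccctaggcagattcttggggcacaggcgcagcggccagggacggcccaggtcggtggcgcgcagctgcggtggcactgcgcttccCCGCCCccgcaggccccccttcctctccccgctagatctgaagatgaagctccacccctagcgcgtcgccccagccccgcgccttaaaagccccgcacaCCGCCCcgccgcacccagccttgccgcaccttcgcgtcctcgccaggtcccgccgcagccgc

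In these windows Krt8 held the E-box, with its first base at position -214 from the start, the TATA box and an AP-1 match, whose first base was at position 14. The annotated start of Krt8 falls on the letters atg, so it may be a start of translation. Its positions may therefore not compare with those of the other windows. Krt18 held a GC box, a TATA box and a CCAAT box, and Vim held the same 3 kinds at other positions. The CCAAT match began at position 1 in Krt18 and at -144 on the opposite strand in Vim. On the strand of the gene, TATAA began at -42 in Krt18 and at -82 in Vim. Ina held 2 GC boxes, and 71.7% of its window was G or C, against 59.0% for Krt8, 60.3% for Krt18 and 62.0% for Vim. Among 33469 promoters of the same length, 33.1% held a GC box, 26.2% a TATA box, 37.5% a CCAAT box, 18.8% the E-box and 7.3% an AP-1 match. Of the 7 filament genes with a window, 5 held a GC box, 4 a TATA box, 2 a CCAAT box, 1 the E-box and 1 an AP-1 match. These are descriptions of letters, and binding was not measured.

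The 3 keratins of simple epithelia were high on DAC2 and REF2 and were all under 5 on both iPS lines. Krt8, the type II keratin of simple epithelia, had levels of 3.55 and 3.49 on A1, 3.63 and 3.49 on A2, 6.91 and 6.71 on DAC2, 3.77 and 3.61 on DAC8, 4.13 and 3.48 on REF1, and 9.12 and 9.11 on REF2. Only the 4 arrays of DAC2 and REF2 passed 5, and REF2 stood above DAC2 without overlap. Krt18, the type I partner of Krt8, had 3.38 and 3.26 on A1, 3.69 and 2.24 on A2, 10.40 and 10.32 on DAC2, 2.87 and 2.93 on DAC8, 3.70 and 3.05 on REF1, and 11.55 and 11.40 on REF2. The same 4 arrays were the ones above 5. Krt19, a type I keratin that also pairs with Krt8, had 4.12 and 4.01 on A1, 2.94 and 3.54 on A2, 10.16 and 10.08 on DAC2, 7.26 and 7.08 on DAC8, 6.13 and 6.05 on REF1, and 11.17 and 11.03 on REF2. Unlike Krt8 and Krt18 it was above 5 on DAC8 and REF1 as well, so that 8 of 12 arrays passed and the 4 iPS arrays were the lowest.

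**Figure D1:**
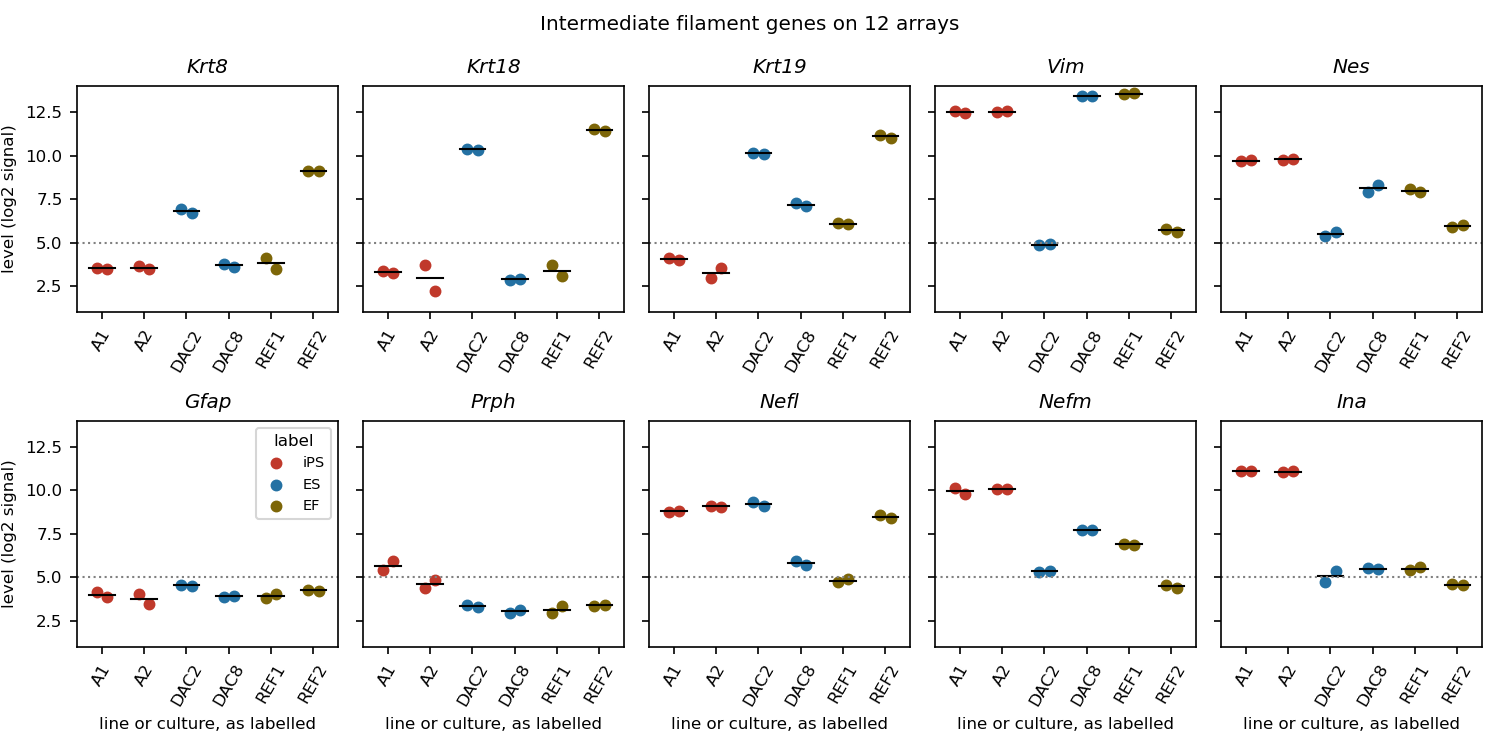
Levels (log2 signal, vertical axis) of the 10 genes on each line (horizontal axis), with 1 point per array, coloured by labelled cell type, the mean of a line's 2 arrays as a bar, and a dotted line at 5. The keratins are high on DAC2 and REF2, Vim is 12.47 or more on the other 4 lines, and Ina is 11.03 or more on A1 and A2 only.

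The iPS mean was lower than DAC2 for all 3, with differences of -3.27 log2 units for Krt8 (SE 0.15), -7.22 for Krt18 (SE 0.33) and -6.47 for Krt19 (SE 0.14, adjusted p = 2.83e-10). Against REF2 the same differences were -5.58, -8.33 and -7.45. Since the iPS levels lay under 5, these sizes are lower bounds. Those of Krt8 and Krt18 are also descriptions, since both genes entered the tests through DAC2 and REF2 alone. Krt19 entered through DAC2, DAC8, REF1 and REF2 and not through the iPS lines. Its iPS differences against each of these lines are therefore descriptions too. Against REF1, iPS minus REF1 was -2.44 ± 0.14 (SE) for Krt19 (adjusted p = 1.69e-07), while for Krt8 it was -0.26 (95% interval -0.61 to 0.08) and for Krt18 -0.23 (-0.98 to 0.52), with both sides under 5. Within the pair of lines with an epithelial profile, DAC2 minus REF2 was -2.31 for Krt8 (adjusted p = 1.6e-05) and -1.11 for Krt18 (adjusted p = 0.0414), both called, and -0.98 for Krt19, which missed the minimum of 1 log2 unit. The Krt18 call was lost without the filter on low levels (adjusted p = 0.0532). It was also lost when any array of DAC2, REF2, A1 or DAC8 was left out, at differences of -1.18 to -1.04. DAC8 minus REF1 was 1.08 for Krt19 (adjusted p = 0.00223), and 0.99 without replicate 1 of DAC8. In the order of levels, every neighbouring pair of lines above 5 differed at adjusted p under 0.05 for the 3 keratins.

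Vim, the main filament protein of mesenchymal cells, was high on both iPS lines and on DAC8 and REF1, and close to 5 on DAC2 and REF2. It had 12.56 and 12.47 on A1, 12.48 and 12.56 on A2, 4.87 and 4.89 on DAC2, 13.40 and 13.43 on DAC8, 13.53 and 13.58 on REF1, and 5.78 and 5.62 on REF2. No array lay between 5.78 and 12.47, so the 8 arrays of A1, A2, DAC8 and REF1 stood clear of the other 4. The iPS mean was 7.63 ± 0.06 (SE) above DAC2 (adjusted p = 3.4e-12), a lower bound since DAC2 averaged 4.88, and 6.82 ± 0.06 above REF2 (adjusted p = 6.13e-12). It was lower than REF1, with a difference of -1.04 ± 0.06 (adjusted p = 1.14e-07), while iPS minus DAC8 was -0.90 ± 0.06, under the minimum of 1 unit. DAC8 minus REF1 was -0.14 (95% interval -0.29 to 0.01), which did not pass the test (adjusted p = 0.173) although the arrays of these lines did not overlap. The arrays of A1 and A2 did overlap (A1 minus A2 0.00, -0.15 to 0.15). REF2 stood above DAC2, with DAC2 minus REF2 at -0.82 ± 0.07.

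The high Vim of the iPS lines did not come with high levels of the matrix genes that define fibroblasts. Postn, a secreted matrix protein, averaged 3.61 on A1 and 3.48 on A2, against 13.74 on REF1. The collagen Col1a1 averaged 4.35 on A1 and 4.34 on A2, against 13.00 on REF1, and Col3a1 averaged 3.52 on A1 and 3.87 on A2, against 13.24 on REF1. Of the 17 fibroblast markers, 7 were at 5 or more on each iPS line, among them Pdgfra (9.50 on A1 and 9.36 on A2, against 9.34 on REF1) and Fbn1 (8.73 and 8.76, against 12.52). Of the 16 tested, 14 were lower and 0 higher in the iPS mean than on REF1, where 32.7% of all genes were called in either direction. Postn, Col1a1, Col3a1, Lum, Prrx1 and Tagln entered the tests through DAC8 and REF1 alone, so their part of this count was built into their selection. Fbln1, a matrix protein, was instead high on DAC2 (8.14) and REF2 (8.92), through which alone it entered the tests. Its iPS minus DAC2 of -4.35 ± 0.12 (SE) is therefore a description. The labels do not say whether the mouse feeders were removed, and their part in the signal on these rat probes was not tested.

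**Figure D2:**
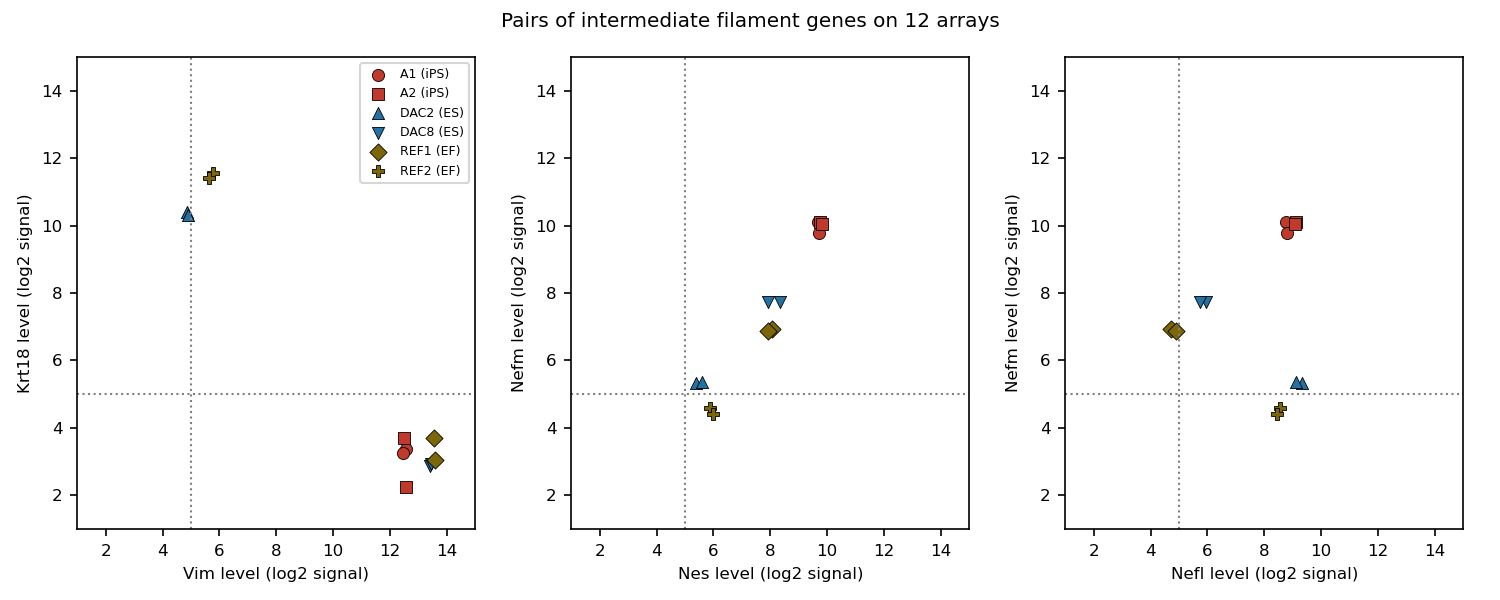
Levels (log2 signal) of Krt18 against Vim, Nefm against Nes, and Nefm against Nefl, with 1 point per array, the marker shape giving the line, and dotted lines at 5. No array lies above 6 for both Vim and Krt18, Nefm and Nes keep one order of lines except for DAC2 and REF2 at the low end, and Nefl is high on DAC2 and REF2 where Nefm is near 5.

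No line combined a high Krt18 with a high Vim. On every array either Krt18 was at least 10.32 and Vim at most 5.78, or Krt18 was at most 3.70 and Vim at least 12.47. Over the 6 line means Krt18 and Vim correlated at -0.98, Krt8 and Krt18 at 0.97 and Krt19 and Vim at -0.83. These points come from lines that fall into 3 pairs of near-equal profiles, so the values are descriptions. As a fold, the change in Vim was 198-fold for iPS over DAC2 and 113-fold for iPS over REF2.

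Nes, the filament protein of neural progenitors, was above 5 on all 12 arrays and highest on the iPS lines. It had 9.67 and 9.72 on A1, 9.76 and 9.82 on A2, 5.39 and 5.60 on DAC2, 7.91 and 8.33 on DAC8, 8.06 and 7.92 on REF1, and 5.87 and 5.99 on REF2. The levels formed 3 steps, with A1 and A2 on top, DAC8 and REF1 in the middle, and REF2 and DAC2 at the bottom. The iPS mean was above DAC2 by 4.25 ± 0.11 (SE, adjusted p = 8.53e-10), above REF2 by 3.82 ± 0.11, above REF1 by 1.75 ± 0.11 (adjusted p = 3.24e-07) and above DAC8 by 1.62 ± 0.11. Neither A1 minus A2 (-0.09, adjusted p = 0.838) nor DAC8 minus REF1 (0.13, adjusted p = 0.534) passed the test, with intervals of -0.38 to 0.20 and -0.16 to 0.42. DAC2 minus REF2 was -0.43 ± 0.13, under the minimum size.

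Among the 9 tested markers of neural progenitors, 5 were higher and 3 lower in the iPS mean than on DAC2, where 29.8% of all genes were called, and 5 were higher and 1 lower than on REF1, where 32.7% were. Pax6, a transcription factor of neural progenitors, averaged 7.33 on A1 and 7.76 on A2 and was at most 2.37 elsewhere. Sox2, shared by pluripotent cells and neural progenitors, averaged 9.43 on A1 and 9.31 on A2, against 11.48 on DAC2, 4.79 on DAC8, 3.86 on REF1 and 11.57 on REF2. Notch1, a receptor of progenitor signalling, averaged 10.34 on A1 and 10.38 on A2, against 5.24 on DAC2 and 7.82 on REF1. Lower in the iPS mean were Lhx2 against REF1 (-2.45 ± 0.18, SE) and Sox21 against DAC2 (-1.98 ± 0.11), both transcription factors that were under 5 on the iPS lines. Pax6, Fabp7 and Hes5 entered the tests through the iPS lines alone, Lhx2 through REF1 and Sox21 through DAC2 and REF2. Their differences here are therefore descriptions.

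Gfap, the filament protein of astrocytes, was under 5 on all 12 arrays, between 3.48 and 4.59, and was not tested. Other astrocyte markers were not uniformly low: of 9 on the array, 5 were at 5 or more on A1 and 6 on A2, against 4 on DAC2 and REF2 and 5 on DAC8 and REF1. Slc1a3, a glutamate transporter of astrocytes and radial glia, averaged 7.92 on A1 and 7.67 on A2, and the iPS mean was above DAC2 by 3.09 ± 0.13 (SE, adjusted p = 1.75e-08) and above REF1 by 1.84 ± 0.13. Glul, the glutamine synthetase, averaged 9.58 on A1 and 9.43 on A2, against 11.33 on DAC2 and 8.09 on REF1. S100b, a calcium-binding protein of glia, was above 5 on A2 only (5.14), through which it entered the tests, with iPS minus DAC2 at 1.62 ± 0.15. Fgfr3 and the connexin Gja1 were lower in the iPS mean than on REF1 (-1.22 ± 0.08 and -1.35 ± 0.05). Of the 6 tested markers, 2 were higher and 2 lower than on DAC2, and 4 were higher and 2 lower than on REF1, where 29.8% and 32.7% of all genes were called. Aqp4 and Aldh1l1 were under 5 on every line.

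Prph, a filament protein of peripheral neurons, passed 5 on the 2 arrays of A1 only. It had 5.42 and 5.93 on A1, 4.38 and 4.85 on A2, 3.40 and 3.27 on DAC2, 2.94 and 3.15 on DAC8, 2.96 and 3.34 on REF1, and 3.35 and 3.43 on REF2. The 10 arrays outside A1 were all under 5 and are given no order. Prph entered the tests only because of its mean on A1, so its differences, 1.81, 2.10, 2.00 and 1.76 log2 units for the iPS mean minus DAC2, DAC8, REF1 and REF2, are descriptions, as is A1 minus A2 at 1.06 ± 0.20 (SE). The fit called the last (adjusted p = 0.0396), a call lost without the filter on low levels and when any array of DAC2, DAC8 or REF2, replicate 2 of A1 or replicate 1 of A2 was left out (adjusted p between 0.0606 and 0.187). Of the 11 markers of peripheral neurons and neural crest on the array, 1 was at 5 or more on each iPS line, which was Tfap2b, a transcription factor of neural crest, at 9.72 on A1 and 9.82 on A2, against 4.56 on DAC2 and 5.30 on REF1. The other 2 tested, the receptor Ngfr and the transcription factor Sox10, were lower in the iPS mean than on REF1 (-1.30 ± 0.14 and -1.56 ± 0.14, SE), with both sides of Ngfr under 5. Sox10 entered the tests through DAC8 and REF1 alone and Ngfr through DAC2 and DAC8, so these differences are descriptions. Isl1 and Pou4f1, transcription factors of sensory neurons, were at most 3.58 on every line.

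The neurofilament genes did not follow a single pattern. Nefm, the medium neurofilament subunit, had 10.11 and 9.77 on A1, 10.10 and 10.06 on A2, 5.33 and 5.35 on DAC2, 7.74 and 7.74 on DAC8, 6.93 and 6.87 on REF1, and 4.59 and 4.41 on REF2. Every neighbouring pair of lines in this order differed at adjusted p under 0.05 except A1 and A2, whose difference was -0.13 (95% interval -0.37 to 0.10). The iPS mean was above DAC2 by 4.67 ± 0.09 (SE, adjusted p = 1.27e-10), above DAC8 by 2.27 ± 0.09 and above REF1 by 3.11 ± 0.09 (adjusted p = 1.36e-09). It was also above REF2 by 5.51 ± 0.09, where Nefm lay under 5. The order of lines was close to that of Nes, with which Nefm correlated at 0.97 over the 6 line means.

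Nefl, the light subunit on which other neurofilament subunits assemble, was high on DAC2 and REF2 as well as on the iPS lines. Its probe set of higher mean had 8.78 and 8.80 on A1, 9.11 and 9.07 on A2, 9.31 and 9.11 on DAC2, 5.96 and 5.73 on DAC8, 4.72 and 4.89 on REF1, and 8.56 and 8.44 on REF2. On that probe set the iPS mean was above DAC8 by 3.10 and above REF1 by 4.13 (SE 0.09 in both, adjusted p = 1.01e-09 and 1.62e-10), while iPS minus REF2 was 0.44 ± 0.09 and under the minimum size. Nefl and Nefm are direct neighbours on chromosome 15, yet their line means correlated at 0.09. DAC2 minus REF1 was 4.40 for Nefl and -1.56 for Nefm, and DAC8 minus REF2 was -2.66 for Nefl and 3.24 for Nefm, all of them called.

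The probe sets of Nefl disagreed on its level in iPS cells against DAC2. On the first probe set iPS minus DAC2 was -0.27 ± 0.09 (SE, adjusted p = 0.0154), under the minimum size, and on the second it was 1.29 ± 0.10 (adjusted p = 1.68e-06). The second had 9.53 and 9.59 on A1, 9.73 and 9.69 on A2, 8.45 and 8.23 on DAC2, 5.06 and 5.12 on DAC8, 3.82 and 4.20 on REF1, and 7.77 and 7.76 on REF2. It gave iPS minus REF2 as 1.87 ± 0.10, which passed the test there. Both probe sets had Nefl above 7.7 on A1, A2, DAC2 and REF2 and under 6 on DAC8 and REF1. Which probe set reads the transcript more faithfully was not tested, so the order of iPS and DAC2 for Nefl has no settled direction.

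**Figure D3:**
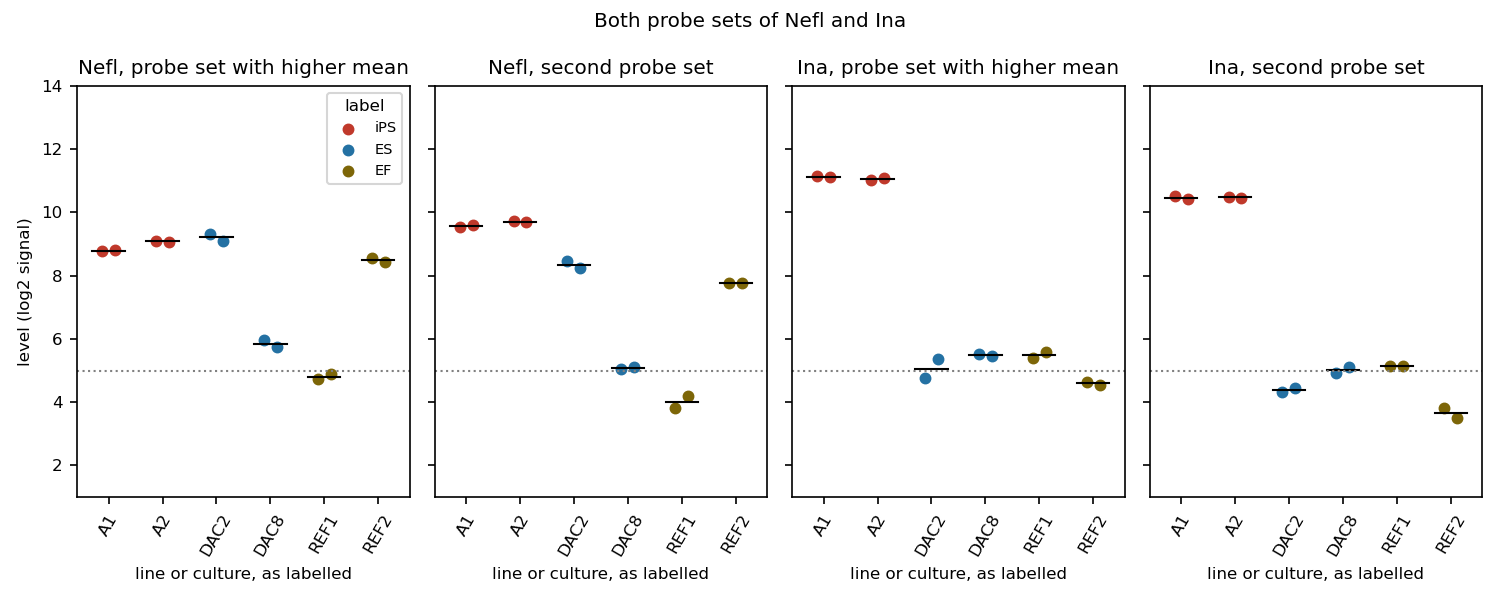
Levels (log2 signal, vertical axis) of both probe sets of Nefl and of Ina on each line, with 1 point per array, the line mean as a bar and a dotted line at 5. Both probe sets of Ina give the same split of iPS from the other lines, while the line means of A1 and A2 lie below DAC2 on the first probe set of Nefl and above it on the second.

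Ina, which forms filaments in young neurons before the neurofilament triplet is abundant, separated the iPS lines from all others. It had 11.14 and 11.12 on A1, 11.03 and 11.10 on A2, 4.76 and 5.36 on DAC2, 5.53 and 5.46 on DAC8, 5.40 and 5.60 on REF1, and 4.63 and 4.55 on REF2. The lowest iPS array was at 11.03 and the highest other array at 5.60. The iPS mean was above DAC2 by 6.04 ± 0.14 (SE, adjusted p = 3.89e-10), above DAC8 and REF1 by 5.60 ± 0.14 and above REF2 by 6.51 ± 0.14. Its second probe set had 10.51 and 10.42 on A1, 10.49 and 10.46 on A2, 4.33 and 4.44 on DAC2, 4.92 and 5.11 on DAC8, 5.15 and 5.15 on REF1, and 3.82 and 3.49 on REF2. That probe set gave differences of 6.09, 5.45, 5.32 and 6.81 in the same order of lines. The first carries an ending that marks probes shared by more than 1 transcript, and both had the same split.

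Other neuronal genes were higher on the same lines. All 13 tested neuron markers were higher in the iPS mean than on DAC2 and all 13 were higher than on REF1, where 29.8% and 32.7% of all genes were called in either direction. Of these markers, Elavl4, Neurod1, Neurog1, Nhlh1 and Snap25 entered the tests through the iPS lines alone. Their part of the count was thus built into their selection, and the count is a description. Gap43, a protein of growing axons, averaged 12.35 on A1 and 12.44 on A2, against 3.48 on DAC2 and 7.66 on REF1, and Rtn1, a reticulon of neurons, averaged 12.38 on both, against 5.36 on DAC2 and 5.29 on REF1. Elavl4, an RNA-binding protein of neurons, averaged 10.70 on A1 and 10.64 on A2, against at most 4.05 elsewhere, and Map2, a microtubule protein of dendrites, averaged 10.68 and 10.67, against 3.43 on DAC2 and 7.57 on REF1. Rbfox3, a marker of mature neurons, was at most 3.69 on every line. In whole cultures, fewer cells with a transcript and less transcript per cell cannot be told apart.

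Taking the labels as they stand, Ina was the only filament gene called between cell types. The fit on line means, with 2 lines per type, called 2.53% of all 11001 genes for iPS against EF and 1 of the 9 filament genes, and 2.26% of all genes and again 1 of 9 for iPS against ES. Ina averaged 11.10 in iPS lines against 5.05 in EF cultures, a difference of 6.05 ± 0.40 (SE, adjusted p = 0.0108), and 11.10 against 5.28 in ES lines, a difference of 5.82 ± 0.40 (adjusted p = 0.0111). Leaving out either line on either side ended both calls, at differences of 5.60 to 6.51 and adjusted p between 0.0737 and 0.261. In each of those 8 fits limma called 0% of all genes, while 588 to 1577 of them, Ina included, had an unadjusted p under 0.05. The median difference over the 9 genes was 2.29 for iPS minus EF and 1.96 for iPS minus ES, against 0.02 over all genes in both.

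The other 8 genes did not pass, and their intervals were wide where the lines of a labelled type lay far apart. For Vim, iPS minus EF was 2.89 with a 95% interval of -7.65 to 13.43, and for Krt18 iPS minus ES was -3.49 with an interval of -13.50 to 6.53. For Nefm the differences were 4.31 (iPS minus EF, adjusted p = 0.201) and 3.47 (iPS minus ES, adjusted p = 0.301), although all 4 iPS arrays lay above the 8 others. With single arrays and the line as a random block, Nefm was called too (adjusted p = 0.0134 and 0.042), where the share of all genes called was 5.06% and 4.65%. For ES minus EF, limma called 0% of all genes and 0 of 9 filament genes. There 25 of the 11001 genes and 0 filament genes had an unadjusted p under 0.05, and the line block also called 0.

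Without the libraries labelled DAC8 and REF2, each of the 3 comparisons called 8 of 9 filament genes, where 73.1%, 70.6% and 75.9% of all genes were called for iPS minus EF, iPS minus ES and ES minus EF. The spread in that fit comes from A1 and A2 alone, and it compares single lines of ES and EF cells. Krt18 was the gene not called for iPS minus EF, Nefl for iPS minus ES and Prph for ES minus EF. The ES minus EF difference was -8.67 for Vim and 6.99 for Krt18 there, against -0.48 and -0.79 with all lines.

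**Figure D4:**
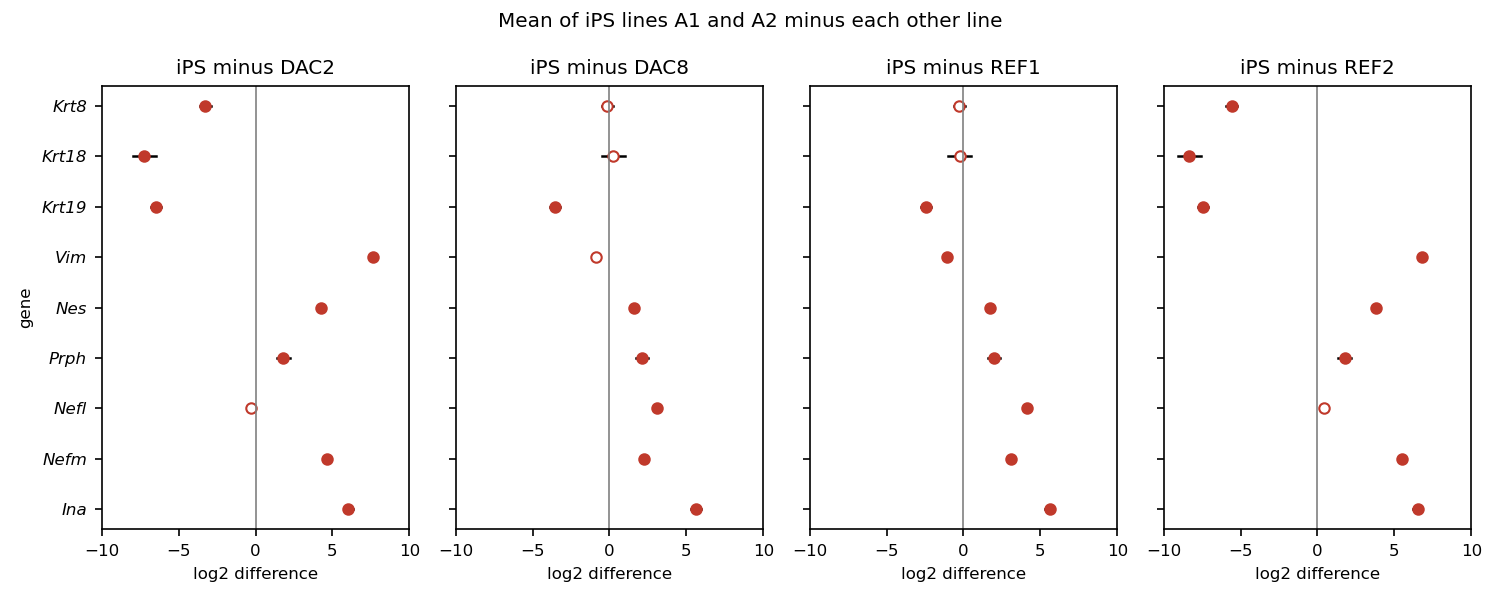
Difference in log2 units (horizontal axis) of the mean of iPS lines A1 and A2 minus each other line, for the 9 tested genes (vertical axis), with 95% intervals as bars where they exceed the point. Filled points passed an adjusted p under 0.05 and 1 log2 unit. Nes, Prph, Nefm and Ina lie above 0 in all 4 panels, Krt19 below 0 in all 4, and Vim changes sign between DAC2 or REF2 and DAC8 or REF1.

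Between lines, calls were frequent among all genes, and the filament genes have to be read against that. For a call of adjusted p under 0.05 and at least 1 log2 unit, iPS against DAC2 called 29.8% of all genes and 8 of 9 filament genes, 5 higher and 3 lower. The comparison of iPS with DAC8 called 31.8% of all genes and 6 of 9, with 5 higher and Krt19 lower. Against REF1 it was 32.7% of all genes and 7 of 9, with Krt19 and Vim lower, and against REF2 30.8% and 8 of 9, with the 3 keratins lower. Nes, Nefm and Ina were among the higher genes in each of these comparisons, which share the iPS arrays. Prph is counted among the higher genes too, but it entered the tests through A1 alone. Krt8 and Krt18 entered through DAC2 and REF2, and Krt19 through DAC2, DAC8, REF1 and REF2. A difference between those lines and the lines under 5 was thus built into their selection. The median size of a difference, without its sign, was 4.67, 2.10, 2.00 and 5.58 log2 units over the filament genes against DAC2, DAC8, REF1 and REF2, and 0.56, 0.62, 0.64 and 0.57 over all genes.

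The lines of the ES label differed from each other at about as many genes as from the line of opposite profile under the EF label, and the EF cultures likewise. DAC2 against DAC8 called 40.2% of all genes and 7 of 9 filament genes, and REF2 against REF1 called 40.3% and 7 of 9. DAC2 against REF1 called 41.0% and 7 of 9, and DAC8 against REF2 called 39.9% and 7 of 9. Within these comparisons the 3 keratins and Nefl were higher and Vim, Nes and Nefm lower on DAC2 than on REF1 and DAC8, and on REF2 than on REF1. Calls were few between lines of like profile: DAC2 against REF2 called 4.0% of all genes and 2 of 9 (Krt8 and Krt18, both lower on DAC2), and DAC8 against REF1 called 1.53% and 2 of 9. The last were Krt19 (1.08 ± 0.16) and Nefl (1.04 ± 0.10, adjusted p = 0.000203), both higher on DAC8, and without replicate 1 of DAC8 neither reached 1 log2 unit. The Nefl difference was 0.96 without replicate 1 of REF1. A1 against A2, also of like profile, called 0.218% of all genes and 1 of 9, which was Prph.

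Other genes of the filament family were in part too low to show variation, while Lmna ranged from 6.62 on DAC2 to 11.35 on REF1. Of 28 further members listed, 23 were on the array and 13 were tested, and the epidermal keratins Krt1, Krt5 and Krt14 were among those at or under 5.43 on every line. Krt7, a simple epithelial keratin, was an exception to the keratin pattern: it averaged 2.65 on A1, 2.57 on A2, 2.82 on DAC2, 6.12 on DAC8, 6.02 on REF1 and 2.76 on REF2. It was above 5 on DAC8 and REF1, where Krt8 and Krt18 were under 5, and iPS minus REF1 was -3.41 ± 0.13 (SE). Krt7 entered the tests through DAC8 and REF1 alone, so that difference is a description.

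The lamins, filament proteins of the nucleus, split by type. Lmna, the A-type lamin known to be low in pluripotent cells, averaged 10.02 on A1, 9.68 on A2, 6.62 on DAC2, 11.24 on DAC8, 11.35 on REF1 and 7.87 on REF2, the order of Vim apart from A1 and A2. The iPS mean was 3.23 ± 0.07 above DAC2 (adjusted p = 1.69e-10), and iPS minus REF1 was -1.50 ± 0.07 (adjusted p = 2.17e-08). The B-type lamins Lmnb1 and Lmnb2 were higher in the iPS mean than on REF1, by 2.10 ± 0.05 and 1.10 ± 0.04. Nefh, the heavy neurofilament subunit, averaged 5.81 on A1 and 5.39 on A2 and was under 5 elsewhere, with iPS minus REF2 at 1.58 ± 0.15 and iPS minus DAC8 at 1.34 ± 0.15. Bfsp2, a lens filament gene, was above 5 on DAC2 only, at 5.44, with iPS minus DAC2 at -1.69 ± 0.10. Iffo2, a gene of the wider filament family, was above 5 on DAC8 only, at 5.37, and iPS minus DAC8 was -1.16 ± 0.15. Nefh, Bfsp2 and Iffo2 entered the tests only through the lines on which they passed 5, so these differences are descriptions. In the list, 1 gene was higher and 1 lower for iPS minus DAC2, and 2 were higher and 2 lower for iPS minus REF1, with medians over its tested genes of -0.21 and -0.10, against -0.07 and 0.12 over all genes. These are 2 and 4 of 13 genes, where 29.8% and 32.7% of all genes were called, so for REF1 the count is near that share.

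**Figure D5:**
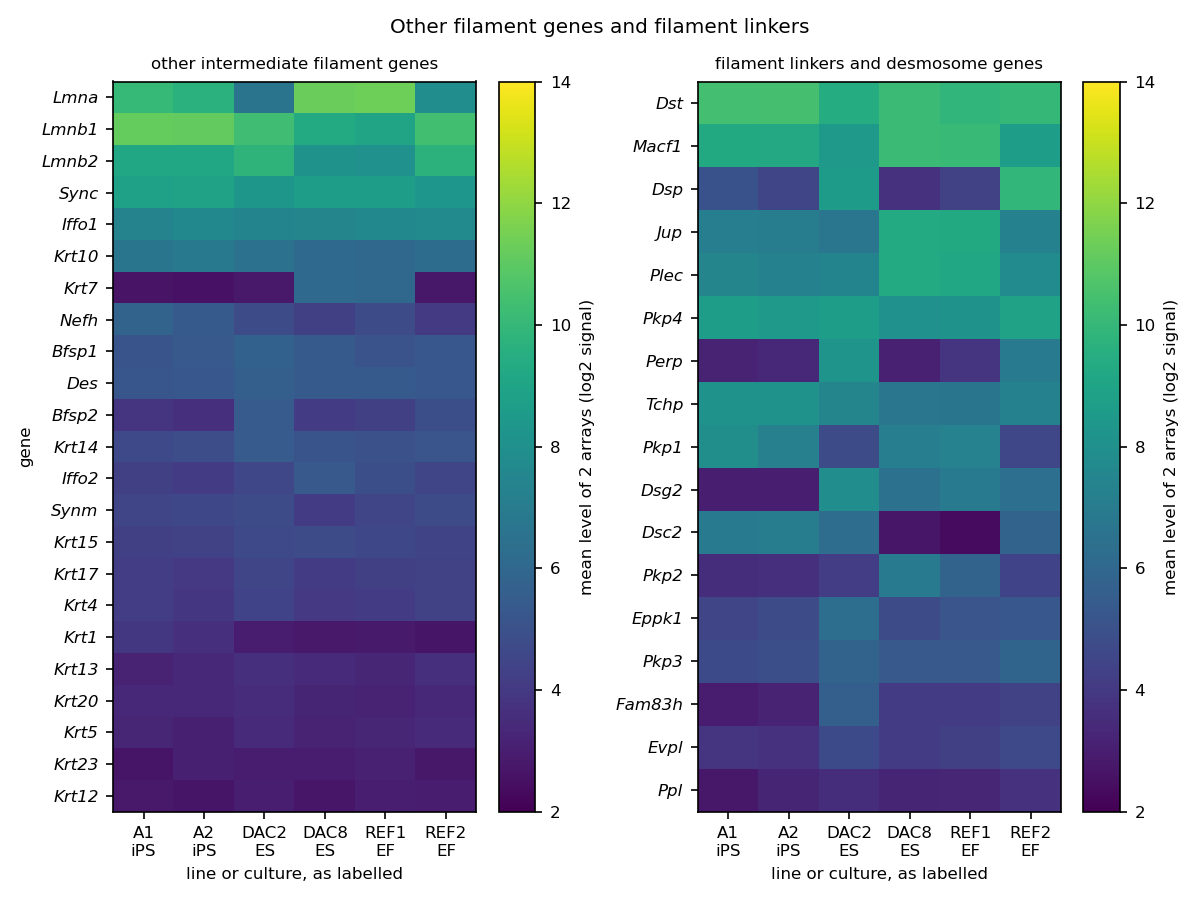
Mean level of a line's 2 arrays (colour, log2 signal from 2 to 14) for 23 other intermediate filament genes and for 17 genes of filament linkers and desmosomes (rows), on the 6 lines (columns). Lmna is low on DAC2 and REF2, Krt7 is above 5 on DAC8 and REF1 only, and Dsp and Perp are high on DAC2 and REF2.

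The linkers that tie filaments to junctions were likewise split between lines. Of 18 listed genes 17 were on the array and 15 were tested, of which 2 were higher and 6 lower for iPS minus DAC2, and 2 were higher and 5 lower for iPS minus REF1, against 29.8% and 32.7% of all genes called. Perp entered the tests through DAC2 and REF2 alone, Fam83h through DAC2, and Pkp2 through DAC8 and REF1. Dsg2, Eppk1 and Pkp3 were also under 5 on both iPS lines and entered through others. Their part of the lower counts was partly built into their selection, so the counts are descriptions. Dsp, the desmosomal plakin that anchors keratins, averaged 5.00 on A1, 4.51 on A2, 8.64 on DAC2, 3.72 on DAC8, 4.34 on REF1 and 9.93 on REF2, so that it was high where Krt8 and Krt18 were. Perp, a membrane protein of desmosomes, was also above 5 on DAC2 and REF2 only, at 8.20 and 6.95. Dsg2, a desmosomal cadherin, averaged 3.02 on A1 and 3.01 on A2, against 7.89 on DAC2, 6.54 on DAC8, 6.99 on REF1 and 6.36 on REF2. It was the only linker called between labelled cell types, with iPS minus ES at -4.20 ± 0.54 (adjusted p = 0.047). Since Dsg2 did not enter the tests through the iPS lines, that difference is a description and at most a lower bound. As for Ina, the call did not hold when A1, A2, DAC2 or DAC8 was left out. Dsc2, the other type of desmosomal cadherin, went the opposite way against REF1, with iPS minus REF1 at 4.65 ± 0.06 (adjusted p = 2.21e-11). Jup, the catenin that Dsg2 and Dsc2 bind, was lower in iPS cells than on REF1 (-2.21 ± 0.07), and Pkp1, a plakophilin, was higher than on DAC2 by 2.81 ± 0.11. Tchp, a keratin-binding protein of the centrosome, was higher than on REF1 by 1.48 ± 0.05, and Dst, a plakin, was higher than on DAC2 by 1.02 ± 0.05.

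Markers of other cell types varied between the same lines. Of 14 tested epithelial markers, 0 were higher and 11 lower in the iPS mean than on DAC2, and 1 was higher and 1 lower than on REF1. Epcam and Cdh1, adhesion proteins of epithelia, were under 5 on both iPS lines, with iPS minus DAC2 at -8.15 ± 0.16 and -7.41 ± 0.15 (SE), and against REF1 the tight junction gene Cldn3 was higher (1.03 ± 0.08) and the protease inhibitor Spint2 lower (-1.35 ± 0.07). Of 6 tested markers of naive pluripotency, 6 were lower than on DAC2 and 3 lower than on REF1, with the transcription factors Klf2 at -8.20 and -5.88 and Klf5 at -6.48 and -2.36 in the same order. Of 9 tested trophoblast and extraembryonic markers, 2 were higher and 3 lower than on DAC2, and 3 were higher and 2 lower than on REF1. Gata3 and Sox17 were higher than on DAC2 (4.74 and 3.86) and Cdx2 and Eomes lower (-5.12 and -4.18), while Tfap2c and Sox17 were higher than on REF1 (5.62 and 4.59) and Dab2 and Krt7 lower (-6.15 and -3.41). Of 3 tested muscle markers only Acta1, the skeletal actin, was called, at 1.48 for iPS minus DAC2 with both sides under 5 and -3.85 for iPS minus REF1. For all of these counts, 29.8% of all genes were called against DAC2 and 32.7% against REF1. Epcam, Cdh1, Cldn6, Cldn7, Ocln, Esrp1, Spint1, Esrrb, Tfcp2l1 and Eomes entered the tests through DAC2 and REF2 alone. Dab2, Krt7 and Acta1 entered through DAC8 and REF1 alone. Klf2, Tbx3 and Cdx2 entered through DAC2, DAC8, REF1 and REF2 and not through the iPS lines. Their lower iPS levels against those lines were built into their selection, so the counts are descriptions.

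The genes whose line means were most like those of a member, by Pearson correlation over the 6 lines among 10992 other tested genes, came from many families. Closest to Krt8 were Pon3 (0.9995), Supt20h (0.9992) and Daxx (0.9982), and to Vim they were Stim1, Mpdz and Gusb (0.9994, 0.9993 and 0.9993). For Nes they were Reep1, Cry2 and Pcbp4 (0.9988, 0.9985 and 0.9985), and for Nefm Pagr1, C2cd3 and Mmgt1 (0.999, 0.9978 and 0.9976). A likeness over 0.99 was reached by 44 genes for Krt8, 122 for Vim, 71 for Nes and 38 for Nefm. Some of these genes varied little: Supt20h averaged 8.53 on A1 and 9.10 on REF2, whereas Pon3 averaged 3.82 on A1 and 8.51 on REF2.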

How the data were processed

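RNA of 6 rat lines was measured on 12 single-colour arrays. The authors deposited a log2 signal for each of 31099 probe sets. The submitters' processing notes list Partek 6.2 along with RMA, a method that corrects background, normalizes and summarises probes, which compresses differences of dim genes. Joint normalization of the 12 arrays is not stated. No detection calls were used, and the number of arrays limits the precision. Columns of other samples numbered 0.

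Gene names came from the table of the array platform: 20832 probe sets had 1 symbol, 436 had several and 9831 were unlisted. Symbols were checked through gene identifiers against a GRCr8 gene table (20764 matched, 0 changed). Genes with a line mean of at least 5 in some line were tested with limma 3.58.1 in R 4.3.3, with eBayes, and p-values were adjusted by Benjamini-Hochberg over all 11001 genes. Cell types were compared on line means (3 residual degrees of freedom, call at adjusted p under 0.05). A random line block was kept as an alternative, since it counts 12 arrays as more than 6 lines. Lines were compared on single arrays (6 residual degrees of freedom, call at adjusted p under 0.05 and a difference of at least 1), with iPS as the mean of A1 and A2. The 2 fits were tested on simulated data.

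The genes and lists were chosen with earlier results of these data known. Named genes are all 10 members, the called genes of the other-filament list, of each other list the 2 highest and 2 lowest called genes for iPS minus REF1 and iPS minus DAC2, and the 3 genes most like Krt8, Vim, Nes and Nefm. Col1a1, Rbfox3, Isl1, Pou4f1, Aqp4, Aldh1l1, Dsp and the Krt1, Krt5 and Krt14 levels were added after their values were seen. Alternatives were filters, scalings, an intensity trend, probe set choice, a replicate block, and arrays or lines left out.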

Additional observations from a re-analysis of the deposited data

Results flagged for a closer look

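Among the 4 iPS arrays, Nefm on replicate 2 of line A1 lay apart from the rest, at 9.77 against 10.06 to 10.11 on the other iPS arrays. Its gap to the nearest array was 0.834 of the group's range, just past Dixon's 95% critical value for 4 samples. In all 36 groups of 4 arrays were checked, over 12 probe sets and 3 labelled cell types, and chance alone passes this limit in about 1 in 20 groups. The array was kept, and each Nefm difference that was called between lines stayed called without it.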

How the results depend on the processing

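Of 321 alternative counts of called filament genes over 14 comparisons, 287 stayed within a ratio of 3 to 2 of the reported count and 34 did not. The reported count of 1 for iPS minus EF became 2 with the line block and 2 with the line block and replicate block together, while the share of all genes called was 5.06% and 4.55%, against 2.53% reported. For iPS minus ES the count of 1 became 2 with the line block, at 4.65% of all genes against 2.26%. In both comparisons the second gene was Nefm. Without DAC8 and REF2 the counts were 8, 8 and 8 for iPS minus EF, iPS minus ES and ES minus EF. With 1 line left out the first 2 ranged from 0 to 1, and where they were 0 limma called 0% of all genes. Between lines, DAC2 minus REF2 gave 1 without a filter and 1 to 2 with 1 array left out, against 2 reported. DAC8 minus REF1 gave 0 to 2 with 1 array left out, against 2 reported. A1 minus A2 gave 0 without a filter, 0 with a filter at 6, where Prph was not tested, and 0 to 2 with 1 array left out, against 1 reported. The replicate numbers do not pair the arrays: same-numbered deviations correlated between -0.08 and 0.24 over 15 pairs of lines, 3 of them over 0.1, and the replicate block left every count between lines within 3 to 2.

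Among 79 single differences with adjusted p under 0.05, 1672 alternative values were computed, of which 1630 kept direction and call, 29 lost the call, 11 gained it and 2 changed direction. The 2 were Nefl for iPS minus DAC2, at 0.51 with the mean of its probe sets and 1.29 with the other probe set, where the cause was not tested. The level of 5 limits what can be read for Prph and Gfap, for the keratins on the iPS lines and for Ina outside them, since differences there are compressed. With 2 lines per labelled type, and DAC8 and REF2 going against their labels, the comparisons of cell types rest on few lines.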
